A study of Mus musculus with 6 samples.

Results

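The 8 mouse genes described here encode receptors by which natural killer (NK) cells recognise other cells: Ncr1, Klrb1c, Klrk1, Klrd1, Klrc1, Klrc2, Klre1 and Klrg1. They were taken by symbol, all 8 matched 1 gene each, and they are 8 of the 32285 genes in the deposited matrix. Their raw UMI counts (unique molecular identifiers, each standing for 1 captured RNA molecule) were compared across NK cells, T cell subsets and the other cell types of tumors grown from MOC-2, a mouse head and neck squamous carcinoma line. MOC-2 cells were placed under the skin of male mice, and the labels give no mouse strain, age or genotype. The labels name 6 tumors, of which 3 received vehicle and 3 an experimental agent by injection into the tumor, and all were taken 24 hours later. The vehicle samples are described as DMSO. The protocol names Copper(II) diethyldithiocarbamate, 2-C1-IB-MECA, 2'3'-c-di-AM(PS)2, 5'ppp-dsRNA/Lyovec, R848, galunisertib, epcadostat, Nw-Hydroxy-nor-L-arginine, L-NMMA, clodronate and 4-1BB ligand as reagents, and does not say which of them the treated tumors received. Live cells of all tumors were tagged, pooled and sequenced by a droplet method that reads the 3' ends of RNAs.

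NK cells are cytotoxic lymphocytes that act without a rearranged antigen receptor and weigh activating against inhibitory signals from germline-encoded receptors. Ncr1 encodes NKp46, an activating receptor that signals through adaptors such as the product of Fcer1g, and Klrb1c encodes the activating receptor known as NK1.1. Klrk1 encodes NKG2D, an activating receptor for stress-induced MHC-like ligands that pairs with the adaptor DAP10 (Hcst) and in mice also with DAP12 (Tyrobp). Klrd1 encodes CD94, which forms a dimer with NKG2A (Klrc1, inhibitory) or NKG2C (Klrc2, activating), and these dimers bind the nonclassical MHC molecule encoded by H2-T23. Klre1 encodes a chain that pairs with the products of Klri1 or Klri2. Klrg1 encodes an inhibitory receptor for cadherins that is also found on some T cells and innate lymphoid cells.

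Of the 8 genes, 7 lie on chromosome 6 (GENCODE release M21, build mm10, matched by gene ID). Klre1 (129577905 to 129585827, plus strand), Klrd1 (129591782 to 129598775, plus), Klrk1 (129610323 to 129623864, minus), Klrc2 (129647496 to 129660689, minus) and Klrc1 (129666015 to 129678973, minus) follow each other within 101069 bases. Klrb1c (128778485 to 128789215, minus) and Klrg1 (122270596 to 122282882, minus) are farther away on that chromosome, and Ncr1 is on chromosome 7 (4337724 to 4345164, plus). RefSeq promoters of build GRCm38.p6, running from 250 bases before to 50 after a RefSeq start, were at hand for 6 of the 8 genes. A gene with several entries was represented by the one with the lowest coordinate. For Klrb1c and Klre1 that window lies inside the GENCODE gene bounds above, so its start is not the outermost GENCODE start. The 4 shown are Ncr1 and Klrb1c, whose RNA was found mostly in NK cells, and Klre1 and Klrc1, whose RNA was shared with CD8 T cells. Each is written 5′ to 3′ on the gene's own strand, and capitals mark TGTGGT or its reverse complement ACCACA, the core sequence bound by RUNX factors.
Ncr1, chr7:4337465-4337764, plus strand: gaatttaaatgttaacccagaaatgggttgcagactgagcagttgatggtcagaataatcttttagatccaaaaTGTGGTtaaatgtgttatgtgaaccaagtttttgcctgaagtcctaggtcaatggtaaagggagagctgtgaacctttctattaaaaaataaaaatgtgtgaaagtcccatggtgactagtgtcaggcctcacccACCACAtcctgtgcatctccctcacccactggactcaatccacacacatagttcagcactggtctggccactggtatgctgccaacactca
Klrb1c, chr6:128788592-128788891, minus strand: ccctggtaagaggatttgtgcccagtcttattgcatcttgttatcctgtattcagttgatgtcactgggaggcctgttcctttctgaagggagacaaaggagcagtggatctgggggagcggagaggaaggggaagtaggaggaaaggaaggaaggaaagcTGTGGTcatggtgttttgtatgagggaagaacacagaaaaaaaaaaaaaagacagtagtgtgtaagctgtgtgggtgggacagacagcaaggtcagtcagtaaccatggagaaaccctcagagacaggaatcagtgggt
Klre1, chr6:129577963-129578262, plus strand: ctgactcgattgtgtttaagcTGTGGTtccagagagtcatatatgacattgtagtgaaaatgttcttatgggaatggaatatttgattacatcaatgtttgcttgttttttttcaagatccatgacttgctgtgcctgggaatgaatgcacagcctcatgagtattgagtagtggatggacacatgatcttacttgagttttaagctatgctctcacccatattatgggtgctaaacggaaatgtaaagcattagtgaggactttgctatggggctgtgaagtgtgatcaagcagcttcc
Klrc1, chr6:129678924-129679223, minus strand: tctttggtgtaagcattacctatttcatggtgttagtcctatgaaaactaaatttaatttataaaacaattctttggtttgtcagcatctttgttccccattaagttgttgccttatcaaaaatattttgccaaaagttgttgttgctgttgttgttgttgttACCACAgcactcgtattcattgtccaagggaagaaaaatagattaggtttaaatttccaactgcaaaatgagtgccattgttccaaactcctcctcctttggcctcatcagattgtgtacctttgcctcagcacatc

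On either strand, the core TGTGGT was present in 6 of these 6 receptor gene promoters and in 17.0% of 27025 mouse promoters of the same length. In Ncr1 it began 176 and 41 bases before the RefSeq start, in Klrb1c 89, in Klrc1 87 and in Klre1 229 bases before. Klrc2 also held 2 matches, at 76 and 49 bases before the start, and Klrk1 held 1 at 129 bases before. GGTGTGA, a core bound by T-box factors such as Eomes, was found in 0 of the 6 and in 3.96% of all promoters. The ETS core CAGGAAGT was in 0 of the 6 and in 3.35% of all. Neighbouring RUNX and T-box matches can share the letters GGT. A match describes letters in the window, not a bound site.

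After filters, 13768 of 14818 cells and 27 clusters remained. The clusters were formed without the 8 genes. Cell barcodes end in a number from 1 to 6, here called barcode sets, and no label links a set or a tag to a tumor. Treated and vehicle tumors were therefore not compared, no p-value is given, and all cells form 1 pooled sample. The sets held 901 to 4077 cells and 7354560 to 38798439 gene UMIs, and 0 barcode sequences occurred in more than 1 set. Levels are a gene's UMIs per 1000000 gene UMIs of a class (CPM) with exact 95% Poisson intervals, and shares of cells have exact 95% binomial intervals. Both cover counting error only and not the spread between tumors. UMIs from 3' ends are not divided by gene length, so levels are compared between classes for 1 gene, not between genes.

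NK cells were the 309 cells of the lymphoid clusters with at least 1 UMI of Nkg7, a cytotoxic granule gene, and 0 UMIs of Cd3d, Cd3e and Cd3g. They held 1145990 UMIs with a median of 2773 per cell, and 293 of them lay in the cluster named for NK cells. All 6 NK markers set aside from the 8 genes (Nkg7, Gzma, Prf1, Xcl1, Eomes and Gzmb) were detected, at a summed level of 10926 CPM against 4107 in T cells. Nkg7 defined the gate, and all 6 markers were used to name the NK cell cluster. Their levels therefore describe the cells and are not an independent check of the label. Without Nkg7 the 5 others were at 9356 CPM in NK cells and 3026 in T cells. Of the 9 T cell markers, 6 were detected in the NK cells at 817 CPM against 4365 in T cells, with the 3 Cd3 genes at 0 by definition. T cells were the 303 cells with Cd3e, divided into 93 CD8 T cells, 42 CD4 T cells, 25 regulatory T cells (Foxp3 positive), 142 cells without Cd8a, Cd4 or Foxp3, here called Cd4- Cd8a- T cells, and 1 cell of mixed marks. Another 62 lymphoid cells with at least 3 UMIs of Xist or of C1q genes, with a median of 9265.5 UMIs against 2167 in the lymphoid cells kept, were set apart as possible doublets. Innate lymphoid cells were the 26 lymphoid cells with 0 UMIs of Nkg7 and the Cd3 genes and a UMI of at least 2 of Il7r, Rora, Gata3 and Il1rl1. At their median of 1134.5 UMIs, T cells with undetected Cd3 RNA could be among them, and innate cells with Nkg7 count as NK cells. The plain gate over all clusters took in 379 cells, 54 of them outside the lymphoid clusters.

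As a set, the 8 receptor genes summed to 2965 CPM (2866 to 3067) in NK cells, 2090 in CD8 T cells, 1367 in Cd4- Cd8a- T cells and 179 in regulatory T cells. Outside the lymphocytes the sum was 551 CPM in a cluster led by Ccr7 and H2-Ab1, 21.1 in macrophages or monocytes and 1.45 in the 9228 cells of the most abundant class, which had Xist, near-absent Y-linked genes and no lineage name (Xist-rich Y-low cells). Mast cells and neutrophils held 0 UMIs of the set. In 300 of 309 NK cells (97.1%) at least 1 of the 8 genes had a UMI. NK cells had the highest level among the 21 classes of 20 or more cells for 5 of the 8 genes: Ncr1, Klrb1c, Klrk1, Klrd1 and Klre1. No share of all genes highest in NK cells is given beside it, so this count is a description only. Klrc1 was highest in CD8 T cells, Klrc2 in the lymphoid cells that met no gate, and Klrg1 in regulatory T cells.

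**Figure D1:**
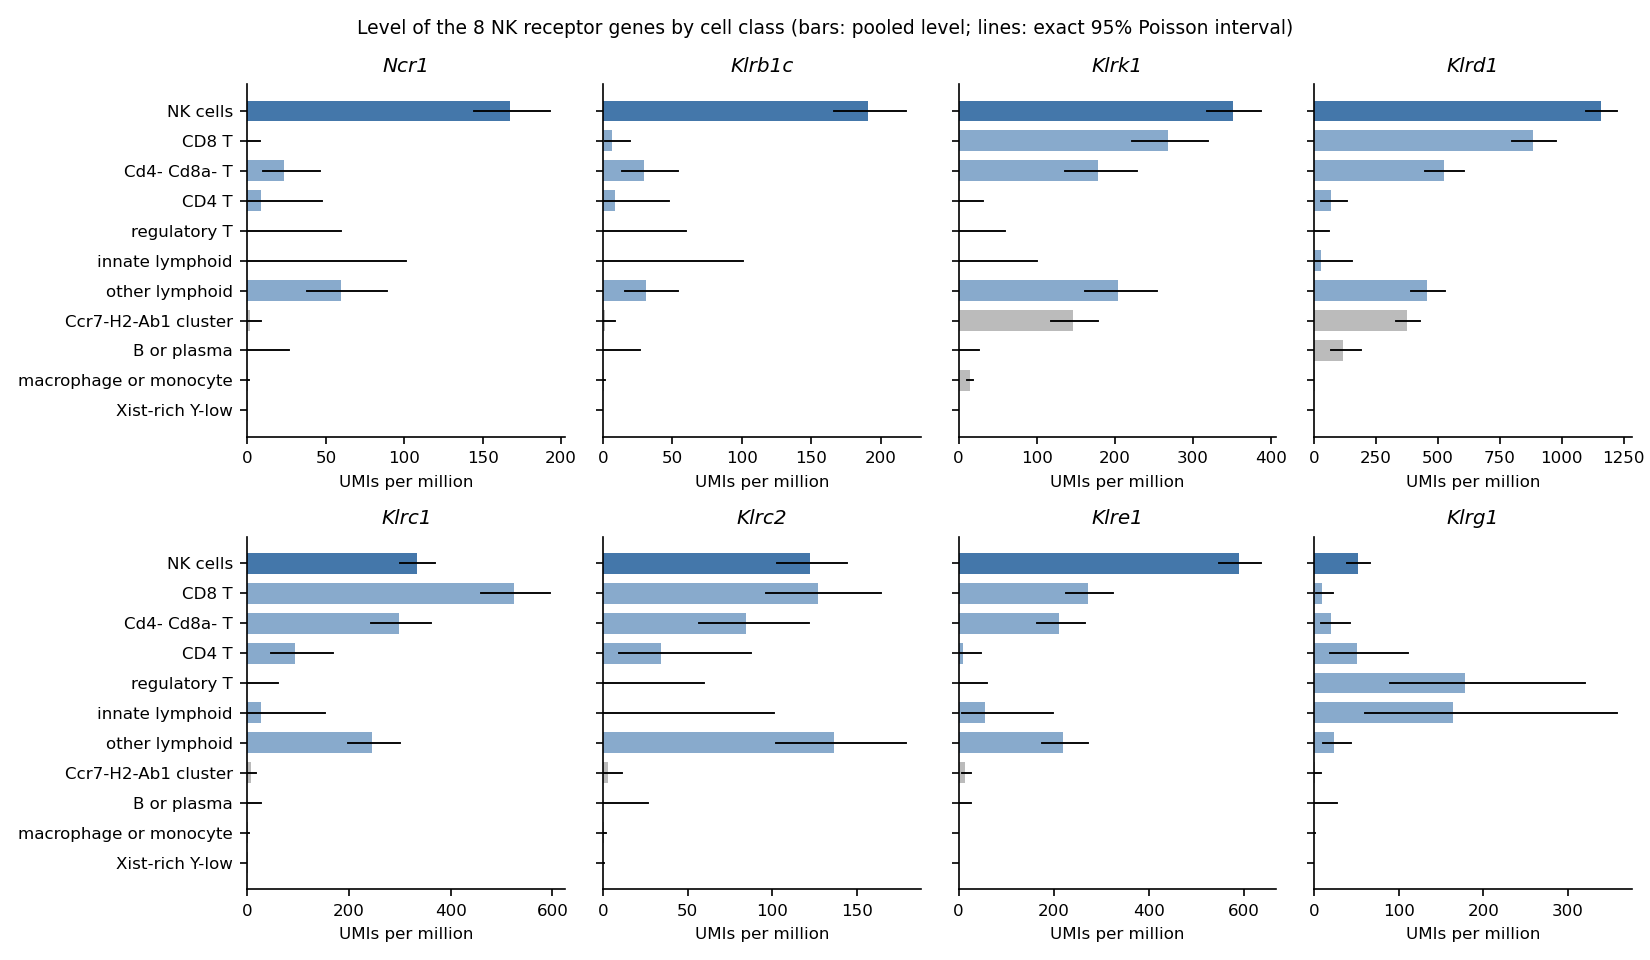
Level of each receptor gene (horizontal axis, CPM, a separate scale per gene) in 11 cell classes, as pooled values with exact 95% Poisson intervals. Ncr1 and Klrb1c are highest in NK cells, followed by the lymphoid cells that met no gate (other lymphoid) at 59.4 and 31.0 CPM. Klrc1 is highest in CD8 T cells at 524 CPM, and Klrd1 and Klrk1 extend into the Ccr7-H2-Ab1 cluster at 377 and 146 CPM.

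Among the activating receptors, Ncr1 and Klrb1c were the most restricted to NK cells. Ncr1 (NKp46) reached 168 CPM (145 to 193; 192 UMIs in 105 of 309 cells) in NK cells and 9.27 CPM in T cells, from 9 UMIs. CD8 T cells held 0 Ncr1 UMIs, where 3 UMIs would be 6.69 CPM. Klrb1c (NK1.1) stood at 191 CPM (167 to 218) in NK cells, 14.4 in T cells and 6.69 in CD8 T cells, the last from 3 UMIs. Their intervals in NK cells did not overlap those of any other ranked class. The NK level was 18.1-fold that of T cells for Ncr1 (9.33 to 40.1) and 13.3-fold for Klrb1c (7.74 to 24.7).

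These 2 genes were the ones among the 8 that reached 4-fold in NK cells over T cells, and 0 of the 8 were 4-fold lower. Over all 5090 genes with at least 50 UMIs in both classes together, 0.943% were at least 4-fold higher and 1.34% at least 4-fold lower. Ncr1 and Klrb1c met this limit through NK cells, with 9 and 14 UMIs in T cells. The median fold of the 8 genes was 1.90, against 0.908 for all genes. With 1 pooled sample these folds carry no replicate check. When NK cells were also required to lack UMIs of T cell receptor, Cd8, Cd4 and Foxp3 genes (95 cells), the count fell to 1, because Ncr1 then had fewer than the 50 UMIs needed.

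Klrk1 (NKG2D) was shared by NK and CD8 T cells. Its level was 352 CPM (318 to 388) in NK cells and 268 (222 to 320) in CD8 T cells, and these intervals overlap at their ends. It was lower in Cd4- Cd8a- T cells, at 178 CPM, and CD4 T cells, regulatory T cells and innate lymphoid cells held 0 Klrk1 UMIs. In these classes 3 UMIs would be 25.6, 48.7 and 82.2 CPM, so a low level was not detectable at this depth. Across all T cells the NK level was 1.88-fold higher (1.57 to 2.25).

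Of the CD94 and NKG2 chains, Klrd1 was highest in NK cells and Klrc1 in CD8 T cells. Klrd1 (CD94) reached 1158 CPM (1096 to 1222) in NK cells, 883 (798 to 975) in CD8 T cells, 523 in Cd4- Cd8a- T cells, 68.3 in CD4 T cells and 0 UMIs in regulatory T cells. The inhibitory partner Klrc1 (NKG2A) ran the other way between the first pair, with 333 CPM (301 to 368) in NK cells and 524 (459 to 596) in CD8 T cells. Neither pair of pooled intervals overlapped, but the order did not hold in each barcode set. In set 3 Klrd1 was at 911 CPM in NK cells and 1075 in CD8 T cells, and in set 5 Klrc1 was at 496 CPM in NK cells and 437 in CD8 T cells, with overlapping intervals in both cases. Without set 6 the Klrd1 level of CD4 T cells was 21.8 CPM. The activating partner Klrc2 (NKG2C) had 122 CPM (103 to 144) in NK cells, 127 (96.3 to 165) in CD8 T cells and 137 (103 to 179) in ungated lymphoid cells, so the order of these 3 is within counting error. At the 3' end, 35.2% of the 60-base stretches in the last 500 bases of Klrc1 transcripts also occur in Klrc2 transcripts, and 13.6% of those of Klrc2 occur in Klrc1. Reads from the shared stretches could be split or dropped between these neighbours, and the counting rule for such reads is not given in the sources used here.

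Klre1 was higher in NK cells than in each other class, at 590 CPM (546 to 636). CD8 T cells had 272 CPM (226 to 325), Cd4- Cd8a- T cells 210, CD4 T cells 8.53 from 1 UMI and regulatory T cells 0 UMIs. The NK level was 2.94-fold that of all T cells (2.5 to 3.46). Of its partner genes, Klri2 was at 133 CPM (112 to 155) in NK cells and 31.2 in CD8 T cells, while Klri1 had 2 UMIs in NK cells.

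Against CD8 T cells alone, the contrast between the receptors was wider. Ncr1 was at least 25.04-fold higher in NK cells, taking 3 UMIs over the whole CD8 T class (6.69 CPM) as the floor for its 0 UMIs, and the exact interval of the fold began at 20.2. The folds of the other genes past 4-fold were 28.6 for Klrb1c (9.65 to 140) and 5.77 for Klrg1 (2.14 to 21.9). The remaining folds were 2.17 for Klre1, 1.31 for Klrd1, 1.31 for Klrk1, 0.961 for Klrc2 (0.702 to 1.33) and 0.636 for Klrc1 (0.539 to 0.751). Thus 3 of the 8 passed 4-fold in this contrast, where 1.89% of 4189 tested genes were as much higher and 0.692% as much lower. Ncr1, Klrb1c and Klrg1 met the limit of 50 UMIs through NK cells, with 0, 3 and 4 UMIs in CD8 T cells. The call of Klrg1 rested on barcode set 2 and on 1 cell: without the set its fold was 3.35, and without the cell 4.18 from fewer than 50 UMIs, so the count was 2 in both cases. The count was also 2 when each cell's CPM was averaged over cells, with folds of 3.04 for Klrg1 and 11.9 for Klrb1c. With the stricter NK gate of 95 cells the count was 0, as none of the 3 then reached 50 UMIs, and the Klrb1c fold was 17.7 without set 5. Within T cells, Klrd1 was 2.46-fold, Klrc1 2.42-fold, Klrk1 2.29-fold, Klrc2 2.01-fold and Klre1 1.94-fold higher in CD8 T cells than in T cells without Cd8a. None of these 5 reached 4-fold, the background shares being 0.615% of 3087 genes higher and 1.52% lower, and Ncr1, Klrb1c and Klrg1 had too few UMIs to enter.

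**Figure D2:**
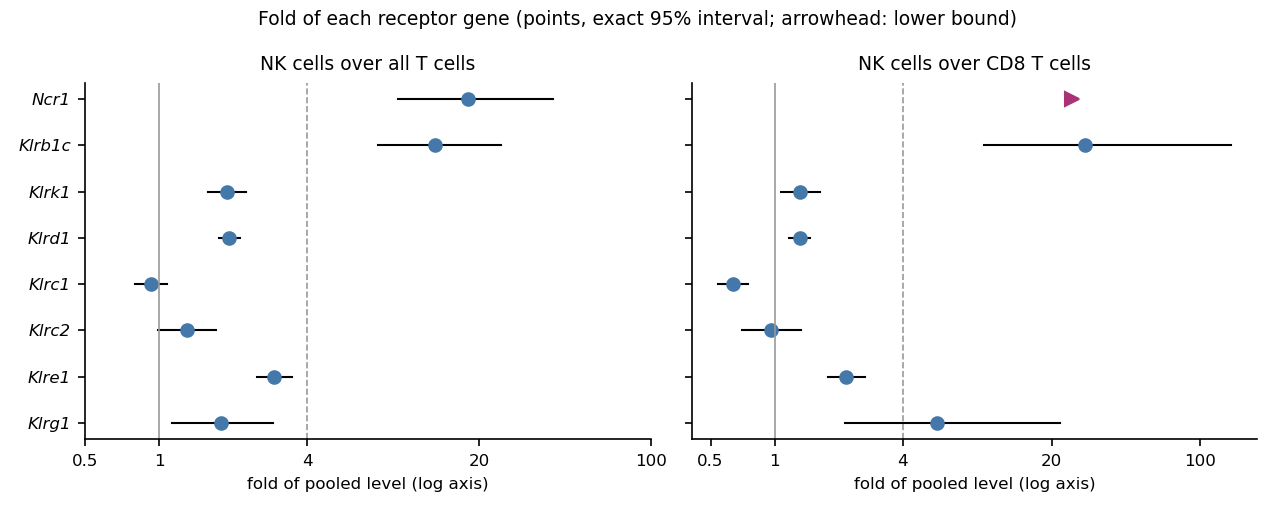
Fold of each receptor gene in NK cells over all T cells (left) and over CD8 T cells (right) on log axes, with exact 95% intervals, a solid line at equal levels and a dashed line at 4-fold. Ncr1 and Klrb1c lie past the dashed line in both panels, Klrc1 lies at 0.636 against CD8 T cells, and the arrowhead for Ncr1 is a lower bound because CD8 T cells held 0 UMIs.

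Cd4- Cd8a- T cells carried the NK receptor genes unevenly. Those in the cluster led by Cd3d and Trbc2 (94 cells) had Klrd1 at 645 CPM, Klrc1 at 365 and Klre1 at 259, while those in the cluster led by Il2ra and Ctla4 (41 cells) had 116, 72.2 and 28.9 CPM. In the second group all 8 Klrd1 UMIs came from 1 cell. Klrg1 went the other way, with 0 UMIs in the first group and 7 UMIs in 6 cells (101 CPM) in the second. Its level in all Cd4- Cd8a- T cells was 20.5 CPM, and 3.10 to 8.08 CPM under other cell filters or a finer clustering. The class then held 72 cells with the stricter filter, 134 with the looser and 108 with the finer clustering, against 142. Its cells also depend on which clusters are named lymphoid in each setting. Cells with a UMI of a gamma-delta T cell receptor gene (29 cells) had Klrc1 at 493 CPM (347 to 679) against 243 (188 to 310) in the other 113, and Klrd1 at 719 (540 to 938) against 468 (389 to 557). The Klrc1 intervals do not overlap and the Klrd1 intervals do.

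Klrg1 had a different distribution from the other 7. Its highest level was in regulatory T cells, with 11 UMIs in 9 of 25 cells (179 CPM, 89.2 to 320), followed by innate lymphoid cells with 6 UMIs in 5 of 26 cells (164 CPM, 60.3 to 358). CD4 T cells had 6 UMIs in 5 of 42 cells (51.2 CPM, 18.8 to 111). These intervals overlap, so the order of these classes is within counting error. The other 7 receptor genes all stood at 0 UMIs in the regulatory T cells, where 3 UMIs would be 48.7 CPM, so a low level was not detectable. NK cells had 59 Klrg1 UMIs in 26 of 309 cells (51.5 CPM, 39.2 to 66.4), of which 17 came from 1 cell. Without that cell the NK level was 37.3 CPM, and without barcode set 2 it was 26.8 CPM. In all 41 lymphoid cells with Foxp3, whether or not Cd3e was seen, 15 cells held Klrg1 UMIs (186 CPM, 112 to 290). These 41 cells were not free of the others. They held 9 Klre1 UMIs (88.1 CPM, 40.3 to 167) and 6 Klrd1 UMIs, each from 1 cell. Klrb1c, Klrc2 and Klrk1 had 2 UMIs each, Klrc1 had 1 and Ncr1 had 0. The regulatory T class is small and held 18 cells without barcode set 3 and 13 under a stricter cell filter. It held 0 under a looser filter or at Leiden resolution 2, where no value was computed. T cells were gated only within clusters named lymphoid, so the 0 reflects the naming of clusters there, not a loss of Foxp3-positive cells. CD4 T cells numbered 31 and 26 in these settings, against 42.

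Klrd1 and Klrk1 were also found in cells that are not lymphocytes. In the Ccr7-H2-Ab1 cluster (184 cells), left without a cell type name although it held all 8 dendritic cell markers at a summed 2032 CPM, Klrd1 had 242 UMIs in 79 cells (377 CPM, 331 to 427) and Klrk1 94 UMIs in 57 cells (146 CPM, 118 to 179). Both were present in 38 cells. Relative to macrophages or monocytes, Klrd1 was 119-fold (69.3 to 220) and Klrk1 10.2-fold (7.36 to 14.3) higher there, in a contrast where 1.94% of 7160 genes were at least 4-fold higher and 5.06% at least 4-fold lower. The other 6 receptor genes had too few UMIs to enter. The NKG2 partner genes were close to absent, with 4 Klrc1 UMIs (6.22 CPM) and 2 Klrc2 UMIs (3.11 CPM), and Klre1 had 9 UMIs. Only 5 of the 79 cells with Klrd1 also had a UMI of Nkg7 or a Cd3 gene, and the 5 NK markers other than Nkg7 summed to 173 CPM in the cluster against 9356 in NK cells.

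Within this cluster Klrd1 was lower in cells with some dendritic cell markers, higher with 1, and not separated by others. Cells with a UMI of Fscn1, a gene of migratory mature dendritic cells, had Klrd1 at 139 CPM (93.3 to 200; 57 cells) and the other 127 cells had 490 (427 to 561). Cells with Cd209a, a lectin gene of some dendritic cells, had 594 CPM (474 to 734; 36 cells) against 314 (267 to 367) in the other 148. Klrd1 was also lower in cells with the dendritic cell growth factor receptor gene Flt3, at 214 CPM (157 to 285) against 461 (398 to 530), and in cells with the transcription factor gene Zbtb46, at 151 (88.2 to 242) against 424 (371 to 483). Its intervals overlapped between cells with and without Ccr7, Clec9a, Xcr1 and Mgl2. Klrk1 was lower with Fscn1, at 81.7 CPM (47.6 to 131) against 177 (140 to 221), while its intervals overlapped for Cd209a. Over the 5 barcode sets with at least 20 such cells, Klrd1 ran from 200 to 505 CPM with a median of 298, and Klrk1 from 96.3 to 183 with a median of 134. Every one of these sets therefore held both receptor RNAs in this cluster.

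**Figure D3:**
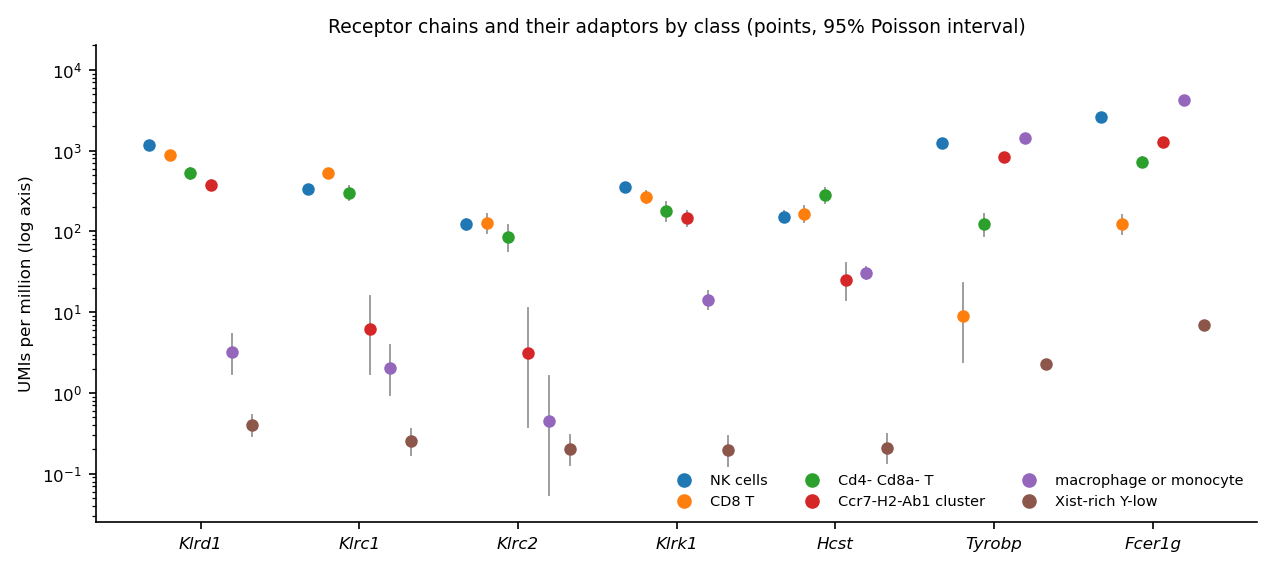
Levels of receptor chains and adaptor genes (vertical log axis, CPM) in 6 cell classes, with 95% Poisson intervals. In the Ccr7-H2-Ab1 cluster Klrd1 is at 377 CPM beside Klrc1 at 6.22 and Klrc2 at 3.11, and Tyrobp is at 1257 CPM in NK cells beside 8.92 in CD8 T cells.

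Among the adaptor genes, Tyrobp and Fcer1g were far higher in NK cells than in T cells, and most others lay closer to equal levels. Of 12 adaptor and signalling genes with enough UMIs, 2 were at least 4-fold higher in NK cells than in T cells, 1 was at least 4-fold lower, and the median fold was 1.08. Tyrobp (DAP12) was at 1257 CPM (1193 to 1324) in NK cells, 123 in Cd4- Cd8a- T cells and 8.92 in CD8 T cells, and was 20.0-fold higher in NK than in all T cells. Fcer1g, the adaptor gamma chain, was at 2575 CPM (2483 to 2670) in NK cells and 123 in CD8 T cells, and was 7.13-fold higher than in all T cells. The gene that was lower was Lat, a T cell receptor signalling scaffold, at 0.083-fold, named after its value was seen. Lat2, a related scaffold, was 2.48-fold higher in NK cells, at 135 CPM. Hcst (DAP10) was at 153 CPM (131 to 177) in NK cells and 165 (130 to 207) in CD8 T cells. Macrophages or monocytes also express Tyrobp (1413 CPM) and Fcer1g (4199 CPM), and 12 of 13 macrophage markers were detected in NK cells at a summed 775 CPM against 1015 in T cells, where all 13 were detected. In the Ccr7-H2-Ab1 cluster, where Klrk1 was found, Tyrobp was at 823 CPM and Hcst at 24.9 CPM.

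Many of the other lectin-like receptor genes of the NK gene complex were higher in NK cells than in T cells. Of 11 tested Ly49 (Klra) and related genes, 7 were at least 4-fold higher in NK cells than in T cells and 0 were lower, with a median fold of 5.86; whether this differs from the 2 of 8 above was not tested. Klrb1b, an inhibitory NKR-P1 receptor, was highest in NK cells at 312 CPM and was 12.1-fold higher than in T cells. It was at 198 CPM in the Ccr7-H2-Ab1 cluster. Klra7 (Ly49G) was not restricted in this way, with 180 CPM (156 to 206) in NK cells, 222 (175 to 278) in Cd4- Cd8a- T cells and 17.8 in CD8 T cells. Cd69, an activation marker encoded in the same gene complex, was highest in CD4 T cells at 717 CPM.

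Of the genes for Klrk1 ligands, Raet1e and Raet1d were nearly absent from NK and T cells, Ulbp1 was not, and H60b was too low to compare. Raet1e had 2615 UMIs in Xist-rich Y-low cells, at 22.1 CPM (21.2 to 22.9), against 1 UMI in NK cells and 4.08 CPM in macrophages or monocytes. Its highest level was in endothelial cells, at 31.7 CPM (17.3 to 53.1). Raet1d was highest in a cluster led by Tnf and Il1a, at 16.7 CPM from 4 UMIs, then in a cluster led by Rps26 and Nefl at 12.2 CPM (7.12 to 19.6). It was at 6.69 CPM in Xist-rich Y-low cells, 5.44 in macrophages or monocytes and 0 UMIs in NK and T cells. H60b was at 1.44 CPM in Xist-rich Y-low cells and 0 UMIs in NK and T cells. There 3 UMIs would be 2.62 and 3.09 CPM, so a level like that of the Xist-rich Y-low cells was not detectable. Ulbp1 was higher in CD8 T cells (37.9 CPM, 22.1 to 60.7) and NK cells (20.9 CPM) than in Xist-rich Y-low cells (1.38 CPM), and was at 29.4 CPM in endothelial cells. These 4 genes were named because they are the Klrk1 ligands with at least 50 UMIs. H2-T23, which encodes the ligand of the CD94 dimers, was at 62.8 CPM in Xist-rich Y-low cells, 182 in macrophages or monocytes, 233 in the Ccr7-H2-Ab1 cluster and 148 in NK cells. Cdh1, encoding the Klrg1 ligand E-cadherin, was highest in the epithelial carcinoma cluster at 301 CPM (269 to 336) and was at 94.9 CPM in the Ccr7-H2-Ab1 cluster and 12.5 CPM in Xist-rich Y-low cells. Cd48, encoding the ligand of the NK receptor gene Cd244a, was at 99.5 CPM in NK cells, 221 in CD8 T cells and 244 in regulatory T cells.

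At a common depth of 1000 UMIs per cell, with 9 shallower NK cells and 1 CD8 T cell left out, Klrd1 was found in 60.3% of 300 NK cells (54.6 to 65.9) and 51.1% of 92 CD8 T cells (40.4 to 61.7). Klre1 was found in 43.0% and 17.4%, Klrb1c in 20.3% and 2.17%, and Ncr1 in 13.3% and 0% (0 of 92 cells, where 3 cells, the floor used here, would be 3.26%). Klrc1 was found in 28.3% of NK cells (23.3 to 33.8) and 41.3% of CD8 T cells (31.1 to 52.1), Klrk1 in 27.7% and 29.3%, Klrc2 in 13% and 17.4%, and Klrg1 in 2.0% of NK cells. In 179 cells of the Ccr7-H2-Ab1 cluster the share was 29.1% for Klrd1 and 14.5% for Klrk1. In 9204 Xist-rich Y-low cells, whose median depth was 11216.5 UMIs before thinning against 2773 in NK cells, each of the 8 genes was found in at most 0.0543%. At full depth the NK shares were higher, for example 81.9% for Klrd1 and 34.0% for Ncr1.

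**Figure D4:**
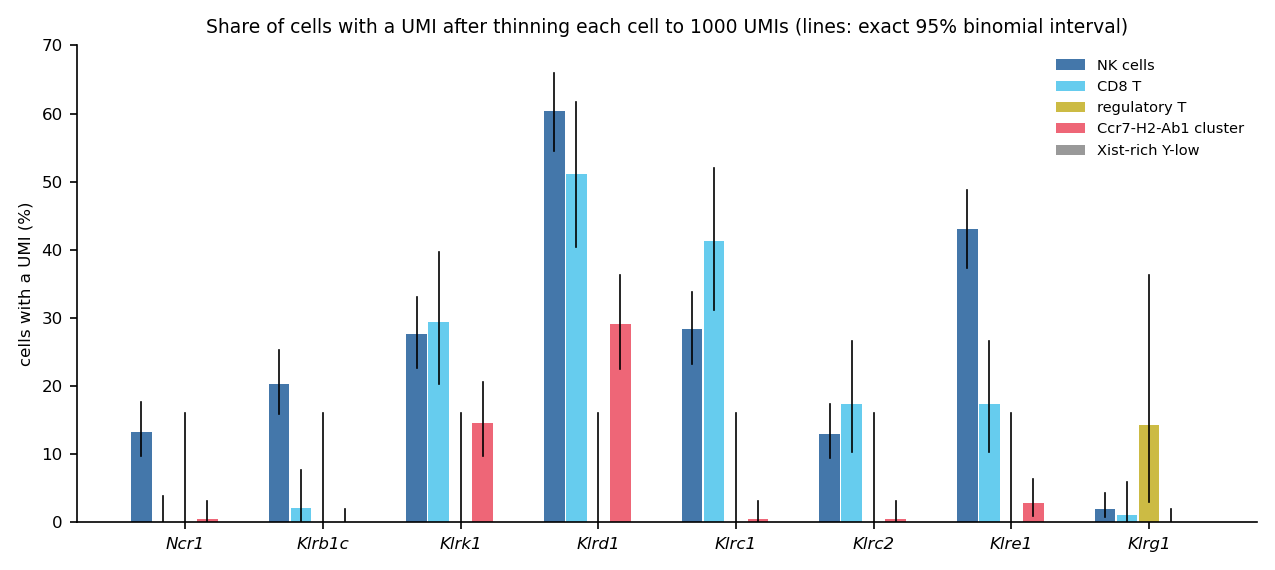
Share of cells with a UMI of each gene (vertical axis, percent) after thinning every cell to 1000 UMIs, with exact 95% binomial intervals, in NK cells, CD8 T cells, regulatory T cells, the Ccr7-H2-Ab1 cluster and Xist-rich Y-low cells. Klrd1 is found in 60.3% of NK cells, 51.1% of CD8 T cells and 29.1% of the Ccr7-H2-Ab1 cluster, and the bars of the Xist-rich Y-low cells are too low to see.

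Single NK cells carried varied combinations. After thinning, 92.0% of NK cells and 82.6% of CD8 T cells had at least 1 of the 8 genes, the median being 2 genes per NK cell and 1 per CD8 T cell. In T cells Klrc1 was found more often in cells with Klrc2, where 62.1% of the 29 Klrc2-positive cells (42.3 to 79.3) and 21.6% of the 255 others (16.7 to 27.1) had Klrc1. In NK cells the same shares were 43.6% of 39 (27.8 to 60.4) and 26.1% of 261 (20.8 to 31.8), and these intervals overlap. Klrd1 was found in 61.2% of NK cells with Klrc1 and 60% of those without. The pair Ncr1 and Klrb1c also had overlapping intervals in NK cells, with Klrb1c in 25% of Ncr1-positive (12.7 to 41.2) and 19.6% of Ncr1-negative cells (14.97 to 24.97). Sharing of sequence between Klrc1 and Klrc2 could move reads between these genes within a cell, which was not tested.

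NK cells were present in each barcode set, with 23 to 78 cells and 73508 to 326309 UMIs per set, and made up 0.796% to 5.78% of its cells (median 2.38%). Across the 6 sets the summed level of the 8 genes ran from 2410 to 3928 CPM with a median of 2912. Ncr1 ranged from 129 to 214 CPM (median 158), Klrd1 from 911 to 1473 (median 1152) and Klre1 from 440 to 767 (median 527). The highest set was less than 2 times the lowest for these 3 and for Klrc1 (248 to 496, median 333). Wider spreads were seen for Klrk1, from 188 CPM in set 6 to 707 in set 3 (median 405), for Klrb1c, from 104 in set 1 to 332 in set 5 (median 174), and for Klrc2, from 67.4 in set 2 to 183 in set 5 (median 127). Klrg1 ran from 0 UMIs in set 3 to 113 CPM in set 2.

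In the 5 sets with at least 20 T cells, 5 of the 8 genes were higher in NK than in T cells in each set where the fold could be formed, and Klrc1, Klrc2 and Klrg1 changed direction between sets. The share of all genes with such a constant direction is not given, so this count is a description only. Klre1 was 1.99-fold to 3.92-fold higher in NK cells, Klrk1 1.46-fold to 3.24-fold and Klrd1 1.09-fold to 2.34-fold. Klrb1c was 6.08-fold to 29.4-fold higher, and Ncr1 8.61-fold to 27.1-fold higher in the 4 sets where T cells held any UMI. Klrc1 was lower in NK cells in sets 2, 3 and 4 (0.637-fold to 0.952-fold) and higher in sets 5 and 6 (1.49-fold and 1.17-fold), so its direction against all T cells was not fixed. Klrc2 was 0.711-fold in set 2 and 1.22-fold to 2.32-fold in the others. Klrg1 was 3.99-fold in set 2, 0.877-fold in set 5 and had 0 UMIs in the NK cells of set 3. CD8 T cells numbered at least 20 in sets 2, 3 and 5. Their Klrc1 level there was 471, 714 and 437 CPM, against 248, 354 and 496 CPM in NK cells, so the order turned in set 5.

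**Figure D5:**
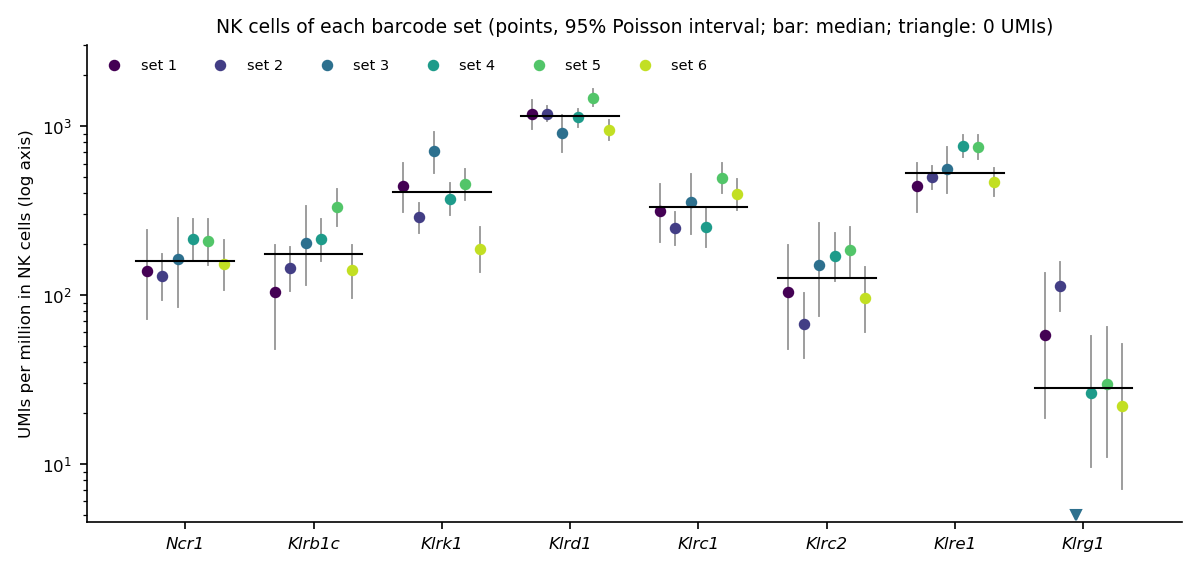
Level of each receptor gene in the NK cells of the 6 barcode sets (vertical log axis, CPM), with 95% Poisson intervals, a bar at the median and a triangle for 0 UMIs. Klrd1 spans 911 to 1473 CPM, Klrk1 spans 188 to 707 CPM, and Klrg1 is at 0 UMIs in set 3; sets belong to no labelled group.

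Likeness of pattern was measured by Pearson's r of log2(CPM + 5) over 59 units, each a class in a barcode set with at least 20 cells, covering 16 classes, for 6598 genes with at least 50 UMIs in the lymphoid clusters. These units share libraries, and the figures are descriptions with no test. Ncr1 was most like Klra3 (r = 0.956), Klrb1f (0.913) and Klrb1c (0.904), all NK lectin receptors, and Klrb1c was most like Klra3, Ncr1 and Klra8. Klrd1 and Klrk1 were most like each other (r = 0.976), then P2ry10. Klrc1 was most like the T cell receptor gene Trbc1 (0.980), Nkg7 and Sh2d2a, and Klrc2 was most like Klrc1 (0.972). Klre1 followed Nkg7 (0.974), Sh2d2a and Ctsw. The NK class was gated on Nkg7, so the likeness of Nkg7 to Klrc1 and Klre1 is not independent of the gate. Klrg1 had the lowest best match of the 8, S1pr4 at 0.807.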

How the data were processed

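The authors deposited 1 matrix of raw UMI counts, made with Cell Ranger 7.1 on build mm10 and Seurat per the submitters' processing notes; its file header names cellranger-7.0.0. It holds 32285 genes, 12 tags, 14818 cells and 141434361 gene UMIs. No label ties tags or barcode sets to the 6 tumors, so all cells were treated as 1 pooled sample. Barcodes were kept when 500 or more genes were detected and mitochondrial transcripts made up less than 15%, and were clustered in scanpy 1.11.5 (3000 variable genes without the receptor and list genes, 40 components, 15 neighbours, Leiden resolution 1). Clusters were named from marker lists. No doublet caller was used; lymphoid cells with at least 3 Xist or 3 C1q UMIs, a limit set after seeing the data, were set apart. Intervals came from scipy 1.17.1. Folds used genes with at least 50 UMIs over both classes; a called fold was at least 4. For the 8 genes, in 5 gene lists, 3 genes per list with the highest CPM in any class were named, if they had at least 50 UMIs. Others are named after their values were seen. The same fold calculation was run on simulated NK and T cell counts of 5064 genes, drawn as Poisson counts from the pooled means. All 50 genes raised 8-fold and 32 of 33 lowered 8-fold were called. So were 1 of 44 lowered 2-fold, 0 of 50 raised 2-fold and 0 of 4887 unchanged genes. The draws held no spread between cells or tumors, so they check the calculation and not the rate of false calls in these data. The 8 genes and the lists were chosen with earlier results of these data known. Alternatives changed the cell filter, clustering, gates, thinning and barcode sets.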

Additional observations from a re-analysis of the deposited data

How the results depend on the processing

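Ncr1 and Klrb1c were the genes at least 4-fold higher in NK than in T cells, and this count became 1 in place of 2 when NK cells had to lack T cell receptor, Cd8, Cd4 and Foxp3 UMIs. With that gate the count against CD8 T cells became 0 in place of 3, and it was 2 to 3 when each barcode set was left out. The summed level of the 8 genes in NK cells, 2965 CPM, became 3110 with at least 3 Nkg7 UMIs, 3149 with the gate without T cell receptor genes, 2700 with the gate over all clusters, and 2610 with possible doublets kept. Leaving out each barcode set in turn gave 2760 to 3103 CPM. The share of NK cells with a UMI was above that at 1000 UMIs for each gene in both other settings, which differ in cells as well as depth: 214 cells remained at 2000 UMIs and 309 without thinning, against 300. In that order it was 28.0% and 34.0% for Ncr1, 33.2% and 42.1% for Klrb1c, 43.9% and 47.2% for Klrc1, 20.1% and 31.1% for Klrc2, 82.2% and 81.9% for Klrd1, 46.3% and 60.5% for Klrk1, 63.1% and 69.6% for Klre1, and 5.61% and 8.41% for Klrg1. No receptor gene reached 4-fold in CD8 T over other T cells under any alternative run. Of single-gene levels, 101 of 121 in NK cells, 114 of 120 in CD8 T cells, 113 of 120 in Cd4- Cd8a- T cells and 111 of 120 in CD4 T cells stayed within their interval. In CD4 T cells, where intervals are wide, 32 of the 120 moved by over 1.5 times, against 2 in NK cells, 3 in CD8 T cells and 4 in Cd4- Cd8a- T cells. The alternatives taking every cell of the NK cluster or leaving out the cell with most Klrg1 UMIs, and all those for the count against CD8 T cells, were chosen after seeing the data. The planned test of treated against vehicle tumors and its alternative with a replicate block were not run. No paired analysis was possible because no label ties cells to tumors.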

Other observations

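In the cluster named for B or plasma cells, Klrd1 had 14 of its 16 UMIs in the 6 cells with Siglech, a gene of plasmacytoid dendritic cells (959 CPM, 524 to 1609), and 0 UMIs in the 16 cells with Cd79a, a B cell receptor gene. Klrk1 was at 24.7 CPM (17.2 to 34.4) in the 549 cells of the monocyte cluster led by Chil3 and at 9.35 CPM (6.21 to 13.5) in the 1283 cells of the macrophage cluster led by C1qa. All 12 Klrc1 and 8 Klrd1 UMIs of endothelial cells came from 1 cell.

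Of 8 tested genes for other NK receptors, 0 were at least 4-fold higher or lower in NK than in T cells; Il2rb, a chain of the receptors for IL-2 and IL-15, was at 1550 CPM in NK cells and 1004 in T cells. Cd244a, an NK receptor for Cd48, was at 77.7 and 22.6 CPM, and Cd226, an activating receptor, at 27.9 and 111 CPM. Of 11 tested lymphocyte regulators, Eomes was 4.89-fold higher and Ikzf2 (Helios) was at 0.229 of the T cell level, while Id2 was at 1552 and 1250 CPM and Ets1 at 537 and 809 CPM in NK and T cells.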
